A study of Mus musculus with 29 samples.

Results

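Spleens at the terminal stage of a myeloproliferative disease were compared with spleens at its progression stage in MLL-ENL-ERtm mice. The arrays were chosen by their titles, 3 of terminal spleen and 3 of progression spleen, which are 6 of the 29 arrays of the series. MLL-ENL fuses the histone methyltransferase MLL, encoded by Kmt2a, to ENL, a transcription elongation protein encoded by Mllt1, and drives acute leukaemia. In these mice the fusion also carries ERtm, a mutated hormone-binding domain of the oestrogen receptor, so that its function depends on tamoxifen. All mice, wild type included, were fed chow with 300 mg of tamoxifen per kg. The terminal spleens were taken after 21, 23 and 19 months of tamoxifen and the progression spleens after 10, 10 and 9 months. Beside them stood 3 early spleens of MLL-ENL-ERtm mice, after 7 months, and 5 wild-type spleens after 24, 8, 9, 11 and 11 months. The submitters describe the terminal spleen as proliferating, free of senescence and with little or no DNA damage response, and the progression spleen as partly senescent with that response still present. Each array is called a biological replicate, while the mice's age, strain and sex and the promoter of the fusion are not stated in the labels.

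The mouse spleen filters blood, houses lymphocytes and, unlike the human spleen, makes red cells throughout life in its red pulp. Red cell precursors divide a few times under the transcription factors GATA1, TAL1 and KLF1, then fill with haemoglobin and build the spectrin skeleton and the surface proteins of the red cell. Haem, the iron-holding part of haemoglobin, is made in 8 enzymatic steps that start and end in the mitochondrion. Values are log2 expression levels of the brightest probe set of a gene. A difference is terminal minus progression in log2 units ± its standard error from the limma fit, so 1 unit is 2-fold, and a gene is said to have risen or fallen where the adjusted p was below 0.05.

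Several properties of the arrays ran with the groups. Xist, an RNA made from the silenced X chromosome of female cells, was high in the 3 terminal arrays, at 12.15, 11.58 and 11.67 in terminal spleens, against 5.72, 5.63 and 5.39 in progression spleens. The Y-linked gene Eif2s3y ran the other way, at 2.82, 3.43 and 2.93 in terminal spleens, against 9.25, 7.31 and 9.67 in progression spleens. Sex, the length of tamoxifen treatment and disease stage therefore cannot be told apart in this comparison. The mean of the 18S ribosomal RNA control probe sets was 13.11 to 13.92 in terminal arrays and 9.36 and 9.55 in progression 1 and 2, against 14.18 in progression 3. In the other 12 spleen arrays together it was 13.11 to 14.39, so progression 1 and 2 stood apart from every other spleen array. Hybridisation spike controls averaged 10.16 to 10.35 in terminal arrays, below the 10.57 to 11.13 of progression arrays. Of the spleen markers, Nkx2-3, a transcription factor of spleen stroma, was measured at 5.66, 5.77 and 5.65 in terminal spleens, against 6.09, 6.19 and 6.16 in progression spleens, near the dim end of these arrays. Their part in the results was not tested, and the lists that gave the most calls are also given with progression 3 alone and with Xist level as a covariate. With progression 3 alone the single array was taken to vary like those of the other groups, and standard errors were larger with 1 array than with 3. Xist level varied little within the terminal or progression arrays. The slope of the covariate therefore rested mainly on the early and wild-type spleens, where early 1 and wild-type 1 and 5 were high.

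**Figure D1:**
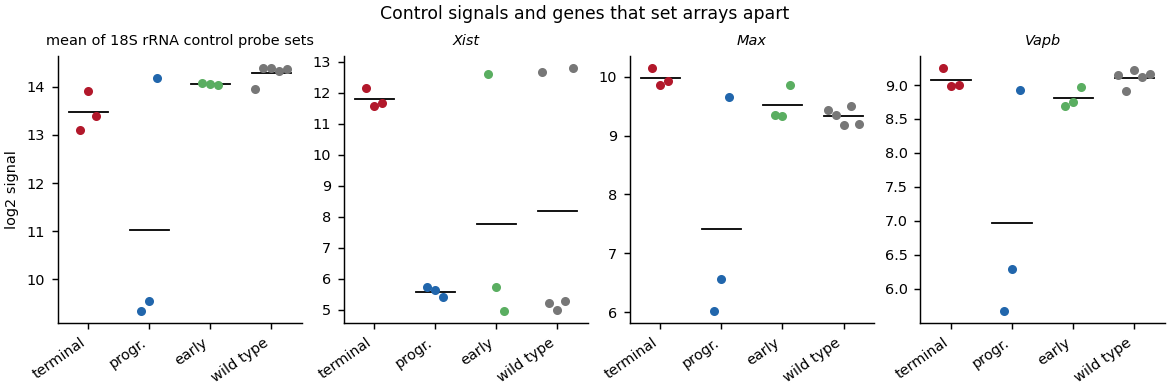
Log2 signal of the 18S ribosomal RNA control probe sets (mean), Xist, Max and Vapb in each spleen array, with terminal, progression, early and wild-type spleens from left to right. Points are arrays and lines are group means. Progression 1 and 2 are low for 18S, Max and Vapb, and the 3 terminal arrays are high for Xist while the 3 progression arrays are low.

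Of 12394 genes tested, 726 passed the threshold, 409 lower in terminal spleen (3.3% of the genes) and 317 higher (2.56%). At least 2-fold differences were more frequent among the falls, with 219 genes lower and 60 higher. Of the 100 genes with the smallest p, 97 were lower in terminal spleen and 21 belonged to the 3 red cell lists described next. The median difference of all genes was 0.01. Centring each array on its median moved that median to -0.05 and the split to 512 lower and 193 higher. With progression 3 alone, 206 genes were lower (1.66%) and 19 higher (0.153%). These included 179 of the 409 falls and 10 of the 317 rises, and no gene that passed in the comparison of all 6 arrays changed sign. With Xist level as a covariate 188 genes were lower (1.52%) and 12 higher (0.0968%). The total was 310 without progression 1, 427 without progression 2, 363 without terminal 2, 446 without terminal 3, 1345 without early 3 and 1911 without progression 3. Of the 110 genes that passed and are named in the text, 54 passed in each of the 14 fits that left out 1 spleen array. Among the 36 red cell genes that was 32, and among the 25 rises 3.

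**Figure D2:**
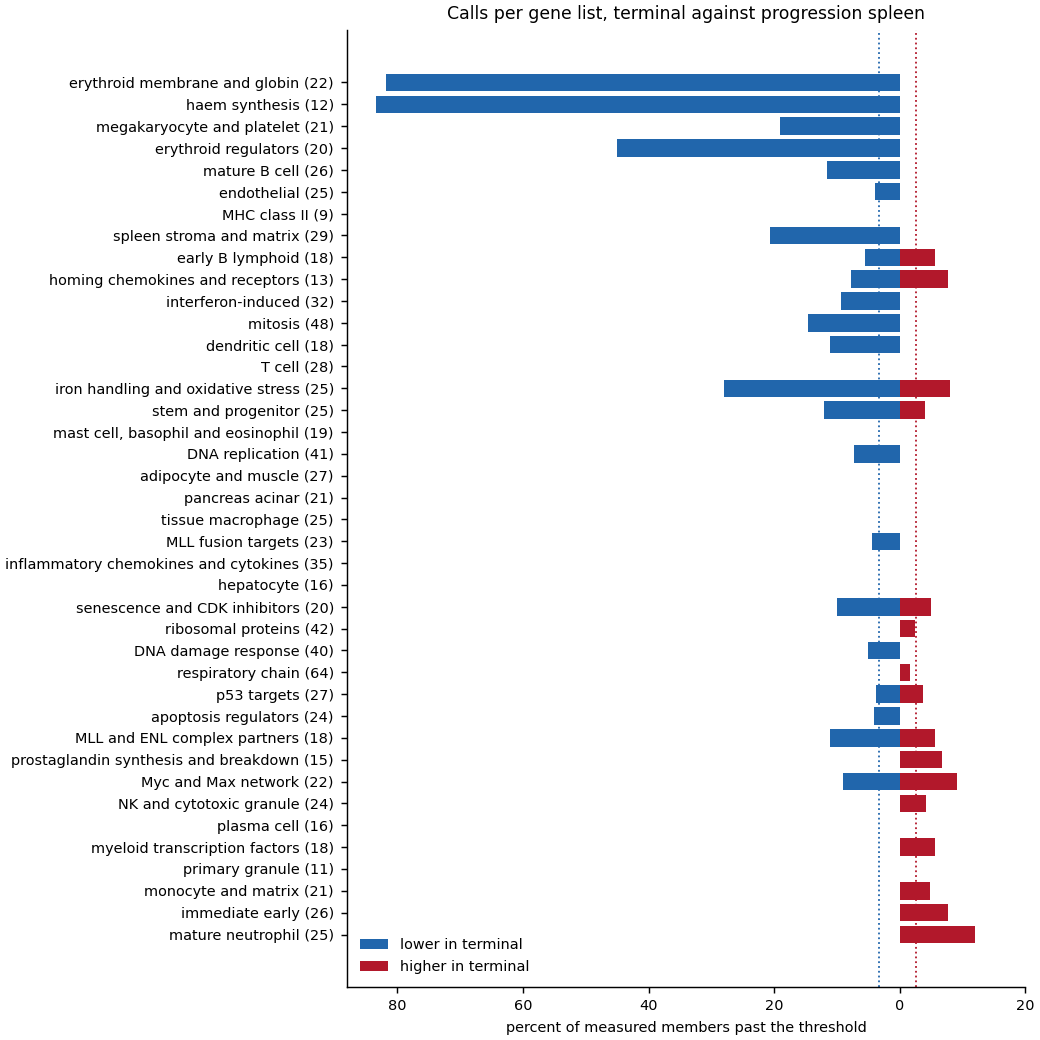
Percent of the measured members of each gene list that passed the threshold, lower in terminal spleen to the left and higher to the right, with the number of measured members in brackets and lists ordered by their median difference. Dotted lines mark the percent of all 12394 genes called in each direction, 3.3% lower and 2.56% higher. Of the 4 lists at the top, the membrane and globin list has 18 of 22 members lower, haem synthesis 10 of 12, megakaryocyte and platelet 4 of 21 and erythroid regulators 9 of 20.

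Genes of haem synthesis fell together. Of 12 measured members of the list 10 fell and none rose, with a median difference of -1.66, and in 10 of 12 every terminal array lay below every progression array, as it did in 11.6% of all genes. The first erythroid enzyme, Alas2, which makes aminolevulinic acid and is used by red cell precursors only, stood at 9.61, 10.49 and 9.56 in terminal spleens, against 13.04, 12.56 and 12.85 in progression spleens. It was 7.61-fold lower (-2.93 ± 0.21, adjusted p = 1.91e-06), and the nearest arrays of the groups were more than 2 units apart. In a bulk spleen, fewer red cell precursors and less RNA in each precursor cannot be told apart. Urod, which removes carboxyl groups from uroporphyrinogen, stood at 9.42, 9.06 and 9.49 in terminal spleens, against 11.54, 11.27 and 11.16 in progression spleens. It was 3.99-fold lower (-2.00 ± 0.14, adjusted p = 1.59e-06). Fech, which inserts iron into protoporphyrin to complete haem, stood at 10.90, 11.34 and 11.07 in terminal spleens, against 13.02, 12.67 and 13.21 in progression spleens. Its difference was -1.86 ± 0.16, adjusted p = 5.45e-06, and all terminal arrays lay below all progression arrays. Slc25a37, or mitoferrin-1, which carries iron into mitochondria, stood at 10.87, 10.58 and 10.89 in terminal spleens, against 12.75, 12.52 and 13.13 in progression spleens, a difference of -2.02 ± 0.18, adjusted p = 9.76e-06.

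The other members of the list included the form of the first enzyme used outside red cells. Uros and Alad, early enzymes of the cytosol, and Ppox, the penultimate enzyme, fell, with differences of -1.65, -1.66 and -1.56 (adjusted p = 0.000167, 0.00257 and 7.96e-05). The mitochondrial transporters Abcb10 and Slc25a38 and Tspo2, a translocator-like protein of erythroblast membranes, fell, with differences of -1.31, -1.04 and -2.17 (adjusted p = 0.000318, 0.0112 and 4.46e-06). Slc25a38 missed the threshold without progression 1. Cpox, which acts between Urod and Ppox, did not pass, at 9.41, 8.64 and 9.61 in terminal spleens, against 10.51, 9.53 and 9.89 in progression spleens, with overlapping groups (-0.76 ± 0.34, adjusted p = 0.184). Alas1, the form of the first enzyme used by other cells, differed in sign from Alas2, at 10.88, 11.25 and 10.63 in terminal spleens, against 9.80, 10.56 and 10.48 in progression spleens. Its difference did not pass (0.64 ± 0.30, adjusted p = 0.201). Relative to the 5 wild-type spleens, at 7.98 to 8.69, Alas1 was higher in terminal spleen by 2.69 ± 0.27 (adjusted p = 5.43e-06) and in progression spleen by 2.05 ± 0.27 (adjusted p = 0.000188). Against progression 3 alone 9 haem synthesis genes fell, with a median of -1.74, and 9 fell with Xist level as a covariate.

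**Figure D3:**
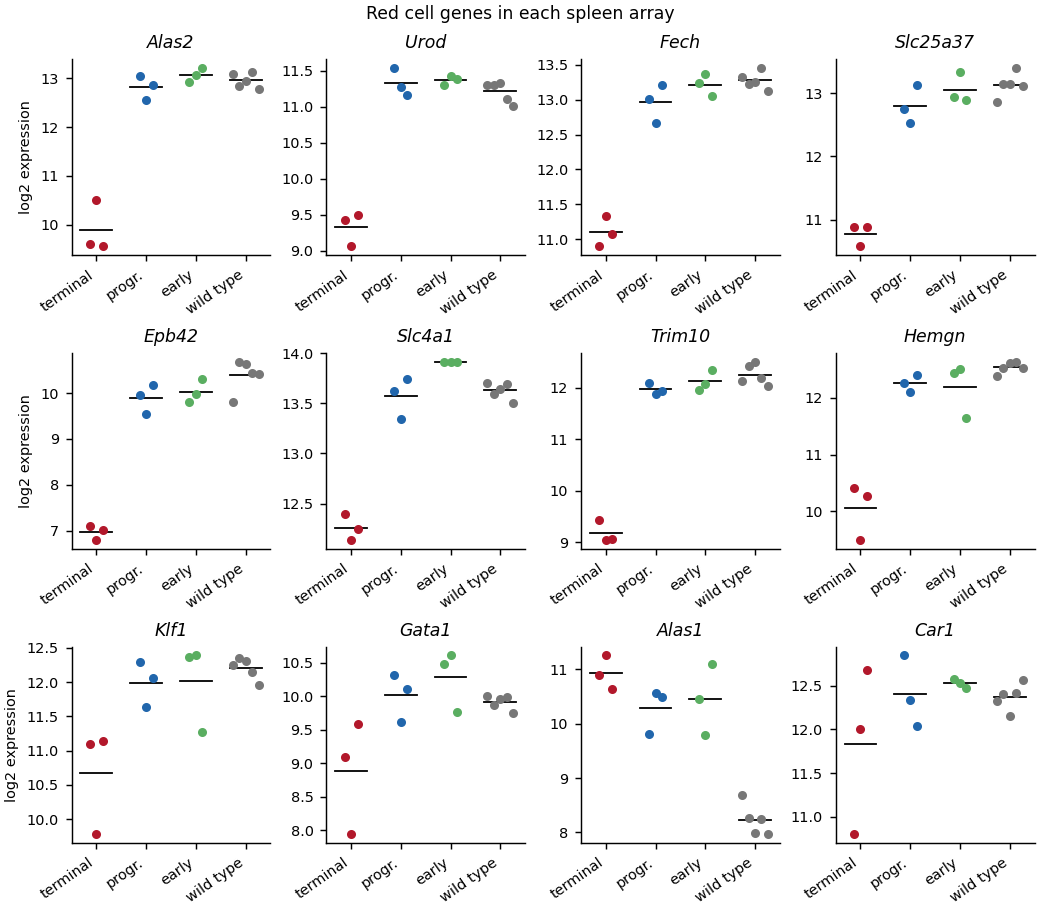
Log2 expression of 12 red cell genes in each spleen array, with terminal, progression, early and wild-type spleens from left to right; each panel has its own axis. Points are arrays and lines are group means. Alas2, Urod, Fech, Slc25a37, Epb42, Slc4a1, Trim10 and Hemgn separate the terminal arrays from all others, Alas1 is higher in all MLL-ENL-ERtm spleens than in wild type, and Car1 overlaps.

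Genes of the red cell membrane, its skeleton and globin fell as well, 18 of 22 measured, with a median of -1.67 and none higher. Epb42, or protein 4.2, which ties band 3 to the spectrin skeleton, stood at 7.11, 6.80 and 7.02 in terminal spleens, against 9.95, 9.54 and 10.17 in progression spleens. It was 7.52-fold lower (-2.91 ± 0.22, adjusted p = 2.69e-06), and no array overlapped. Slc4a1, the anion exchanger band 3 itself, stood at 12.39, 12.14 and 12.25 in terminal spleens, against 13.62, 13.35 and 13.75 in progression spleens. It fell less on the log2 scale (-1.31 ± 0.12, adjusted p = 1.07e-05), from one of the highest levels of the list. Tmod1, or tropomodulin, which caps the short actin filaments of the skeleton, stood at 6.53, 6.91 and 6.82 in terminal spleens, against 9.22, 9.35 and 9.76 in progression spleens (-2.69 ± 0.23, adjusted p = 7.04e-06). The skeleton genes Sptb (β-spectrin) and Ank1 (ankyrin) fell, with differences of -1.51 and -1.80 (adjusted p = 0.000167 and 0.00212).

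Surface antigens and cytoplasmic proteins of the red cell followed. Rhd, the mouse Rh polypeptide, stood at 10.05, 9.23 and 10.25 in terminal spleens, against 12.23, 11.98 and 12.24 in progression spleens, a 4.94-fold difference (-2.31 ± 0.21, adjusted p = 1.07e-05). Kel, the Kell blood group protein, stood at 8.95, 8.04 and 8.59 in terminal spleens, against 11.03, 10.51 and 10.61 in progression spleens (-2.19 ± 0.22, adjusted p = 3.6e-05). Icam4, the Landsteiner-Wiener protein, which binds integrins, stood at 7.80, 7.40 and 8.36 in terminal spleens, against 10.24, 9.81 and 10.22 in progression spleens (-2.23 ± 0.20, adjusted p = 1.07e-05). All terminal arrays lay below all progression arrays for these 3 genes. Rhag, Ermap, Gypc (glycophorin C), Aqp1 (the water channel) and Cldn13 differed by -1.18, -1.37, -1.53, -1.86 and -1.35, and all 5 passed. Bpgm, which makes the 2,3-bisphosphoglycerate that loosens oxygen from haemoglobin, stood at 9.54, 10.75 and 9.67 in terminal spleens, against 12.74, 12.47 and 12.64 in progression spleens (-2.62 ± 0.25, adjusted p = 1.65e-05). Trim10, a RING-finger protein of terminal erythroid differentiation, stood at 9.44, 9.04 and 9.07 in terminal spleens, against 12.11, 11.89 and 11.95 in progression spleens and was 6.96-fold lower (-2.80 ± 0.16, adjusted p = 2.92e-07). Carbonic anhydrase 2, Car2, fell by 0.99 (adjusted p = 0.000949).

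Members that did not pass were Car1, Add2, Xk and Hba-a1. Car1, a carbonic anhydrase of early red cell precursors, stood at 10.80, 12.00 and 12.69 in terminal spleens, against 12.85, 12.34 and 12.04 in progression spleens, and terminal 3 lay within the progression range (-0.58 ± 0.34, adjusted p = 0.308). Add2, β-adducin, missed the threshold with no overlap (-0.97 ± 0.27, adjusted p = 0.0522). Xk, the partner of Kell, differed by -0.21 ± 0.15, adjusted p = 0.403. The Hba-a1 probe set lay near the floor in every spleen, at 4.16, 4.29 and 3.88 in terminal spleens, against 4.31, 4.29 and 3.92 in progression spleens, so it gives no measure of α-globin. Hbb-b2, a β-globin gene with a near-identical neighbour whose RNA the probes may also bind, stood at 6.74, 7.84 and 7.20 in terminal spleens, against 9.94, 9.70 and 10.39 in progression spleens (-2.75 ± 0.40, adjusted p = 0.000853). Of the membrane and globin list 15 members fell with progression 3 alone (median -1.83), and 16 fell with Xist level as a covariate.

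Erythroid regulators fell less uniformly, 9 of 20 measured, with a median of -0.92 and none higher. Hemgn, a nuclear protein of red cell precursors and a GATA1 target, stood at 10.40, 9.50 and 10.27 in terminal spleens, against 12.26, 12.11 and 12.40 in progression spleens (-2.20 ± 0.24, adjusted p = 5.97e-05). Fhdc1, a formin that is a member of the list, fell by 2.32 (adjusted p = 2.69e-06). Tal1, the basic helix-loop-helix factor of the GATA1 complex, stood at 10.01, 8.93 and 10.43 in terminal spleens, against 11.68, 11.08 and 11.56 in progression spleens (-1.65 ± 0.33, adjusted p = 0.0103). Its adaptor Lmo2 and the GATA1 cofactor Zfpm1, or FOG1, fell, with differences of -0.72 and -1.45 (adjusted p = 0.00205 and 0.029). Klf1, which switches on β-globin and many membrane genes, stood at 11.10, 9.79 and 11.14 in terminal spleens, against 12.29, 11.64 and 12.05 in progression spleens, a difference just past the threshold (-1.31 ± 0.35, adjusted p = 0.0396) and lost without progression 1 or 2, terminal 2 or any wild-type array. Epor, the erythropoietin receptor, Foxo3, a factor of late maturation, and Bcl2l1, whose product BCL-XL keeps maturing red cells alive, fell too, with differences of -1.01, -1.19 and -1.39 (adjusted p = 0.0293, 0.01 and 9.27e-05).

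Gata1 itself did not pass, at 9.10, 7.95 and 9.59 in terminal spleens, against 10.32, 9.62 and 10.11 in progression spleens. The groups did not overlap, and terminal 2 was the lowest array (-1.14 ± 0.33, adjusted p = 0.0582). Tfrc, the transferrin receptor, Gfi1b, a repressor of erythroid and platelet precursors, and Nfe2 differed by -0.67, -0.86 and -0.34 without passing (adjusted p = 0.0572, 0.162 and 0.0817). Of the 20 regulators 4 fell with progression 3 alone (median -1.12) and 4 with Xist level as a covariate. Without progression 1 the 9 falls became 6, with Klf1, Zfpm1 and Epor no longer past the threshold, and these 3 were also lost without terminal 2. Without early 3 the falls became 13. Over the 3 red cell lists together 36 of 52 distinct genes fell and none rose, 27 fell with progression 3 alone, 28 with the covariate, 20 with both and 22 where all 29 arrays shared 1 fit.

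Relative to wild type, terminal spleens had median differences of -1.69 for haem synthesis, -1.74 for membrane and globin genes and -0.93 for erythroid regulators, while progression spleens had medians of 0.05, -0.04 and -0.04. Progression minus wild type ranged from -0.33 to 0.16 over the haem synthesis list apart from Alas1, from -0.64 to 0.25 over the membrane and globin list and from -0.50 to 0.55 over the regulators. The highest regulator, Nfe2, passed in that contrast, at 0.55 ± 0.10 (adjusted p = 0.00156). Terminal minus early had medians of -1.76, -2.04 and -1.20. Alas2 differed from wild type by -3.07 ± 0.19 (adjusted p = 1.8e-07) in terminal and -0.14 ± 0.19 (adjusted p = 0.645) in progression spleen, and Epb42 by -3.42 ± 0.20 (adjusted p = 8.97e-08) and -0.51 ± 0.20 (adjusted p = 0.0887). Terminal and progression spleens share the wild-type arrays in these contrasts. The wild-type spleen with 24 months of tamoxifen, which was also Xist-high, had a haem synthesis mean of 11.21 and a membrane and globin mean of 10.70, against 10.90 to 11.19 and 10.61 to 10.86 in the other 4 wild-type spleens, so it was the highest of the 5 for haem synthesis. The other Xist-high wild-type spleen, after 11 months, was the lowest of the 5 in both lists, at 10.90 and 10.61. The 3 terminal arrays had 9.60 to 9.83 and 8.73 to 9.15.

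The promoters of 4 of the genes that fell are shown because each holds AGATAA, a form of the sequence that GATA factors recognise. The windows run from 250 bases before to 50 after the start of the RefSeq gene model (GRCm38.p6), written 5′ to 3′ along the gene, with AGATAA or its reverse complement TTATCT in capitals.
Alas2 (chrX:150547167-150547466, plus strand): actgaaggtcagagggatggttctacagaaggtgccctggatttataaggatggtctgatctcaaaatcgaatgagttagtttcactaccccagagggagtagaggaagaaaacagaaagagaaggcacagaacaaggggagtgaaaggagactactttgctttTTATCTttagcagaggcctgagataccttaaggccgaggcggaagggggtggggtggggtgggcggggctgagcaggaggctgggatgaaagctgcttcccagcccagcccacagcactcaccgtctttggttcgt
Epb42 (chr2:121036828-121037127, minus strand): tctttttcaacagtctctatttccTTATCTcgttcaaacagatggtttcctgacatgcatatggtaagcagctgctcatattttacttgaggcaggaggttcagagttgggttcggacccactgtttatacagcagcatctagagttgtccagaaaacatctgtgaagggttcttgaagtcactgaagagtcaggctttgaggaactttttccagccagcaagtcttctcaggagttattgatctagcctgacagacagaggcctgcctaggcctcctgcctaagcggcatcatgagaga
Trim10 (chr17:36869324-36869623, plus strand): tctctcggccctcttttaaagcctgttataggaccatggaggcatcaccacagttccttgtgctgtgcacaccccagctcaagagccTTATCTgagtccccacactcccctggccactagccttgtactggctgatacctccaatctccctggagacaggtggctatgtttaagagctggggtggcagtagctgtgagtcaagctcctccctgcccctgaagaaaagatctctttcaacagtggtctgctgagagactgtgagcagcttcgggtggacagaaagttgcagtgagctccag
Icam4 (chr9:21029182-21029481, plus strand): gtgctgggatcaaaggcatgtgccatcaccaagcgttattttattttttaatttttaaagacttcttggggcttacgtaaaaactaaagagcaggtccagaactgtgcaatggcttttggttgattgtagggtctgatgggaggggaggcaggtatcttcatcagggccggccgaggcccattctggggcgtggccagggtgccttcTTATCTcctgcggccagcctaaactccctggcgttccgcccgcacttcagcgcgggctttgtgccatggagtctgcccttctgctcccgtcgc
Each window holds 1 match, on the reverse strand, at 86, 226, 163 and 43 bases before the start in Alas2, Epb42, Trim10 and Icam4. Of the 36 red cell genes that fell, 27 had a window, and 11 of the 27 held the motif on either strand, against 2 of 13 listed red cell genes that did not pass and 12.7% of the 27025 genes with a window (11.2% of all 32851 windows). The 11 were Alas2, Epb42, Trim10, Icam4, Rhd, Kel, Hemgn, Tal1, Epor, Fhdc1 and Bcl2l1. A match of 6 letters is a description of the window and was not tested.

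Genes outside the lists were also among the 15 largest falls. Fn3k, a kinase that removes sugar from glycated proteins and is abundant in red cells, stood at 5.45, 6.10 and 6.33 in terminal spleens, against 8.98, 9.05 and 9.56 in progression spleens, a 9.44-fold difference (-3.24 ± 0.25, adjusted p = 2.69e-06). Fam220a, a gene of little known function, stood at 8.10, 9.07 and 8.19 in terminal spleens, against 11.38, 10.96 and 11.17 in progression spleens (-2.72 ± 0.23, adjusted p = 5.36e-06). The 2 genes with the smallest p of all were Plaat3, a phospholipase, and Gch1, the first enzyme of tetrahydrobiopterin synthesis, named here after their values were seen. Plaat3 stood at 8.24, 7.87 and 8.38 in terminal spleens, against 10.47, 10.50 and 10.61 in progression spleens (-2.36 ± 0.13, adjusted p = 2.29e-07) and Gch1 at 7.77, 8.09 and 7.78 in terminal spleens, against 10.34, 10.22 and 10.70 in progression spleens (-2.54 ± 0.14, adjusted p = 2.29e-07). All 4 genes also fell with progression 3 alone, with differences of -3.60 (adjusted p = 0.00021) for Fn3k and -2.82 (adjusted p = 1.6e-05) for Gch1, and all 4 passed with Xist level as a covariate.

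Several oxidative stress genes fell too. Of 25 measured genes of iron handling and oxidative stress 7 fell and 2 rose, with a median of -0.15. Over all genes 3.3% fell and 2.56% rose. Prdx2, an abundant red cell peroxiredoxin, stood at 12.15, 11.55 and 12.04 in terminal spleens, against 13.40, 13.18 and 13.37 in progression spleens (-1.41 ± 0.15, adjusted p = 4.4e-05). Cat, catalase, stood at 9.52, 9.76 and 9.71 in terminal spleens, against 10.95, 10.98 and 11.35 in progression spleens (-1.43 ± 0.24, adjusted p = 0.00285). Gclm, a subunit of the enzyme that starts glutathione synthesis, and Nqo1, a quinone reductase, fell, with differences of -1.03 and -0.94 (adjusted p = 0.000532 and 0.00613). Nfe2l2, the NRF2 factor that activates Gclm and Nqo1, was higher by 0.53, and Slc11a1, a phagosomal metal transporter of macrophages, by 0.68 (adjusted p = 0.031 and 0.0322). Both rises were lost without progression 2, terminal 1 or terminal 2, and Nfe2l2 also without progression 1 and Slc11a1 without terminal 3. Against progression 3 alone 3 of the list fell and none rose, and with Xist level as a covariate 2 fell and none rose.

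Platelet, stromal and vessel genes included the largest falls of all, and none of the 3 lists gave a call with progression 3 alone. Igfbp7, Ackr3 and Cavin2, among the 15 largest falls, are not members of the platelet, stroma and endothelial lists. Igfbp7, a secreted protein of vessel walls counted in the senescence list, stood at 6.32, 6.21 and 5.37 in terminal spleens, against 10.96, 9.81 and 9.81 in progression spleens (-4.23 ± 0.70, adjusted p = 0.0029). In early spleen it stood at 10.50, 9.78 and 6.69, so early 3 was near the terminal level. Igfbp7 and Sparc passed in each of the 14 fits that left out 1 array. Sparc, a matrix protein, stood at 5.84, 5.81 and 5.31 in terminal spleens, against 9.07, 7.91 and 9.59 in progression spleens (-3.20 ± 0.64, adjusted p = 0.0107). Early spleens again split, at 9.02, 8.75 and 5.96. Of 29 stroma and matrix genes 6 fell, with a median of -0.56, where 3.3% of all genes fell. The 6 included Col4a1, Bgn and Timp3 (differences of -2.31, -1.90 and -2.44). Of 25 endothelial genes 1 fell, Cav1, which forms caveolae (-2.00 ± 0.52, adjusted p = 0.0372), with a median of -0.76. Col4a1 was lost without progression 1 and Bgn without progression 1 or terminal 1 or 3. Timp3 passed in 6 and Cav1 in 7 of the 14 fits, both lost without progression 1 or 2 or any terminal array. Cavin2, Ackr3, Coch and Cald1, also among the 15 largest falls, differed by -3.40, -3.57, -3.04 and -2.90. Ackr3 missed the threshold without progression 1, Coch without progression 2 or any terminal array, and Cavin2 passed in 7 and Cald1 in 5 of the 14 fits, both lost without progression 1 or 2 or terminal 1 or 2. The terminal levels of these 4 genes and of Sparc, Col4a1, Bgn, Timp3 and Cav1 lay near the dim end of the arrays, so no fold is given.

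Of 21 megakaryocyte and platelet genes 4 fell, with a median of -1.18, where 3.3% of all genes fell. Ppbp, a chemokine stored in platelet granules, stood at 7.97, 8.47 and 9.66 in terminal spleens, against 13.22, 11.70 and 11.21 in progression spleens (-3.35 ± 0.74, adjusted p = 0.0187). Gp9, a subunit of the platelet receptor for von Willebrand factor, stood at 7.36, 7.46 and 7.67 in terminal spleens, against 10.69, 8.85 and 8.71 in progression spleens (-1.92 ± 0.45, adjusted p = 0.0246). In both genes progression 1 was the highest of all spleens, and the groups did not overlap. Gng11, a G protein subunit, and Itgb3, the integrin β3 subunit, fell, with differences of -1.80 and -0.47. Ppbp was lost without progression 1 or terminal 1 or 2, and Gp9 without progression 1 or any terminal array. Gng11 passed in 8 and Itgb3, near the dim end, in 5 of the 14 fits, both lost without progression 1 or 2 or terminal 2 or 3. Against progression 3 alone the medians of the stroma, endothelial and platelet lists were -0.26, -0.79 and -0.69, and at an unadjusted p below 0.05 in the comparison of all 6 arrays 14, 14 and 12 members were lower, where 11.3% of all genes were lower and 13.9% higher. With progression 3 alone Igfbp7 differed by -3.84 (adjusted p = 0.102), Sparc by -3.94 (adjusted p = 0.0512) and Ppbp by -2.51 (adjusted p = 0.27). With Xist level as a covariate 3 stroma, 2 endothelial and 3 platelet genes fell. Without progression 1 the counts of falls were 1 for stroma and 0 for platelets, and without early 3 they were 10 and 10. Early 3 carried list means of 5.39 for stroma and 5.58 for endothelium, against 6.22 to 6.26 and 7.01 to 7.05 in the other early spleens.

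**Figure D4:**
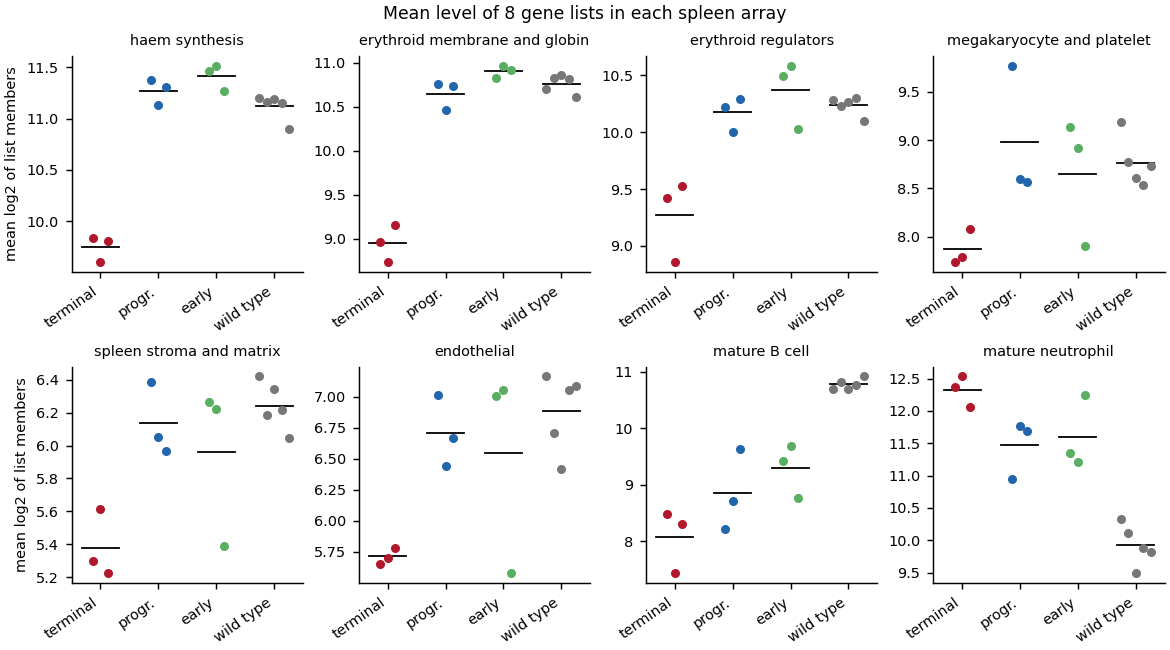
Mean log2 level of the measured members of 8 gene lists in each spleen array, with terminal, progression, early and wild-type spleens from left to right; each panel has its own axis. Points are arrays and lines are group means. The red cell lists set the 3 terminal arrays apart, while 1 early spleen joins the terminal level in the stroma, endothelial, platelet and mature neutrophil panels, and progression 1 is the highest in the platelet panel.

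Mature B cell genes lay below wild type in both stages, and 3 of 26 measured fell in terminal relative to progression spleen, with a median of -0.85. Over all genes 3.3% fell. The list had 11 lower and no higher genes at an unadjusted p below 0.05, where 11.3% of all genes were lower. Cr2, the complement receptor CD21 of mature B cells and follicular dendritic cells, stood at 5.85, 4.37 and 5.19 in terminal spleens, against 6.99, 7.91 and 9.42 in progression spleens (-2.97 ± 0.58, adjusted p = 0.01). Wild-type spleens held 11.02 to 11.33, and the difference from wild type was -6.01 ± 0.52 (adjusted p = 1.94e-06) in terminal and -3.04 ± 0.52 (adjusted p = 0.00111) in progression spleen. Its terminal levels lay near the dim end of the arrays, so no fold is given. Tnfrsf13c, the receptor for the survival factor BAFF, and Fcer2a, or CD23, fell, with differences of -1.43 and -1.52 (adjusted p = 0.0356 and 0.0475). Cr2 passed in each fit that left out 1 array, and the other 2 were lost without progression 1, 2 or 3 or terminal 2 and without several wild-type arrays. Fcer2a, also near the dim end, passed in 4 of the 14 fits. Ms4a1, which encodes CD20, stood at 10.07, 7.58 and 9.22 in terminal spleens, against 9.56, 10.64 and 11.57 in progression spleens and did not pass (-1.63 ± 0.55, adjusted p = 0.0855). Ccr6, a chemokine receptor of B cells, and Ly6d, a marker of B cell precursors and some dendritic cells, fell, with differences of -1.82 and -1.59 (adjusted p = 0.0181 and 0.0241), both lost without progression 2 or terminal 2, and Ccr6 without terminal 3. Against progression 3 alone, the highest of the 3 for Cr2 and Ms4a1, Cr2 differed by -4.28 (adjusted p = 0.00632), and 2 genes of the list fell. With Xist level as a covariate 1 fell, Cr2.

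Other lymphoid lists gave few calls, where 3.3% of all genes fell and 2.56% rose. None of 28 T cell genes and none of 9 MHC class II genes passed, with medians of -0.20 and -0.64. At an unadjusted p below 0.05 there were 5 lower and 1 higher T cell genes and 2 lower class II genes. Over all genes 11.3% were lower and 13.9% higher at that level. The T cell, MHC class II and NK list means of every terminal and progression array lay below those of every wild-type array. MHC class II means were 9.12 to 10.93 in terminal and 10.58 to 11.19 in progression spleens, against 12.01 to 12.19 in wild type. The NK and cytotoxic list gave 1 rise of 24, Il18rap, a subunit of the interleukin-18 receptor, at 8.42, 9.32 and 8.19 in terminal spleens, against 6.66, 7.32 and 7.22 in progression spleens (1.58 ± 0.34, adjusted p = 0.0165), lost without progression 1 or terminal 2. Cd24a, a surface protein of B cell and red cell precursors, fell by 0.71 (adjusted p = 0.0011).

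Of 25 mature neutrophil genes 3 rose and none fell, with a median of 0.90, where 2.56% of all genes rose and 3.3% fell. At an unadjusted p below 0.05, 15 were higher, where 13.9% of all genes were higher. The list mean was 12.06 to 12.53 in terminal and 10.95 to 11.76 in progression spleens. Early 3 lay within the terminal range, at 12.24, and early 1 and 2 at 11.35 and 11.21. Cxcr2, the receptor that draws neutrophils out of the marrow, stood at 9.85, 10.43 and 9.42 in terminal spleens, against 8.18, 8.47 and 7.94 in progression spleens (1.70 ± 0.35, adjusted p = 0.0135). Pglyrp1, an antibacterial granule protein, stood at 12.96, 12.90 and 12.20 in terminal spleens, against 10.18, 11.32 and 11.65 in progression spleens (1.64 ± 0.38, adjusted p = 0.0238). Itgam, the integrin CD11b, stood at 11.13, 11.16 and 10.89 in terminal spleens, against 8.87, 9.87 and 10.15 in progression spleens (1.43 ± 0.36, adjusted p = 0.0319). In each of the 3, every terminal array lay above every progression array. Relative to wild type Itgam was higher by 3.56 ± 0.32 (adjusted p = 2.33e-06) in terminal and by 2.13 ± 0.32 (adjusted p = 0.000413) in progression spleen, and Pglyrp1 by 3.54 ± 0.34 (adjusted p = 3.85e-06) and 1.90 ± 0.34 (adjusted p = 0.00141). Mmp9, a granule gelatinase, did not pass (1.31 ± 0.40, adjusted p = 0.0665).

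Among 11 primary granule genes, which mark promyelocytes, none passed, with a median of 0.38. At an unadjusted p below 0.05, 2 were higher, where 13.9% of all genes were higher. Past the threshold 2.56% of all genes rose. The list mean of early 3, at 12.42, lay within the terminal range of 12.15 to 12.56. Elane, neutrophil elastase, stood at 12.80, 13.32 and 12.80 in terminal spleens, against 11.74, 13.09 and 12.51 in progression spleens with overlapping groups (0.53 ± 0.44, adjusted p = 0.486). Spi1, which encodes the myeloid factor PU.1, was the 1 of 18 myeloid transcription factors to pass, at 10.88, 11.00 and 10.92 in terminal spleens, against 9.64, 10.01 and 10.07 in progression spleens (1.03 ± 0.21, adjusted p = 0.0112). Tlr4, the endotoxin receptor, was the 1 of 21 monocyte and matrix genes to pass, higher by 1.23 (adjusted p = 0.0301). Neither against progression 3 alone nor with Xist level as a covariate did any gene of the neutrophil, granule, myeloid factor or monocyte lists pass. Against progression 3 alone Cxcr2 differed by 1.96, Itgam by 0.91 and Spi1 by 0.86. With the covariate the neutrophil median was 0.84. Cxcr2 then differed by 1.63 ± 0.46, a larger standard error than the 0.35 without the covariate. Without terminal 2 the neutrophil list gave no rise, Pglyrp1 was also lost without progression 1 or terminal 1 and Itgam without progression 1 or 2 or terminal 1 or 3, and without early 3 the list gave 9 rises. Spi1 was lost without progression 1, and Tlr4 without progression 1 or 2 or terminal 2 or 3.

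Immediate early genes, which are switched on within minutes of a stimulus, were uneven among the terminal arrays. The list had 8 higher and no lower genes at an unadjusted p below 0.05, where 13.9% of all genes were higher. Past the threshold 2.56% of all genes rose. Of 26 measured 2 rose, with a median of 0.49, and none passed with progression 3 alone or with Xist level as a covariate. Junb, a subunit of AP-1, stood at 9.52, 11.19 and 9.50 in terminal spleens, against 8.05, 7.65 and 7.92 in progression spleens (2.20 ± 0.54, adjusted p = 0.0293). Zfp36, or tristetraprolin, which destabilises cytokine messages, stood at 10.57, 12.09 and 10.62 in terminal spleens, against 9.25, 9.01 and 9.83 in progression spleens (1.73 ± 0.48, adjusted p = 0.0497). Terminal 2 was the highest of the 3 for both, and early 3 reached 9.82 and 11.22. Egr1 and Ier2, also highest in terminal 2, did not pass (differences of 2.18 and 1.53, adjusted p = 0.0558 and 0.0666). Junb missed the threshold without terminal 2, progression 1 or progression 2, and Zfp36 passed in 3 of the 14 fits that left out 1 array.

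The remaining genes of the 15 largest rises were of several kinds. Grb14, an adaptor that binds the insulin receptor, stood at 6.42, 7.33 and 6.87 in terminal spleens, against 4.27, 4.71 and 4.77 in progression spleens (2.29 ± 0.23, adjusted p = 2.54e-05). It was the 1 gene among those 15 that also rose with progression 3 alone, by 2.11 (adjusted p = 0.00457), and with Xist level as a covariate, by 2.36 (adjusted p = 0.000655). Its levels in early and wild-type spleens were at most 4.97, near the dim end, so no fold is given. Rnase2a, an eosinophil-associated ribonuclease, stood at 4.99, 8.65 and 6.88 in terminal spleens, against 3.70, 4.02 and 4.29 in progression spleens, with a spread of more than 3 units among terminal arrays (2.84 ± 0.73, adjusted p = 0.0351). Klra17, a receptor of the Ly49 family, stood at 9.38, 9.38 and 7.98 in terminal spleens, against 7.15, 6.48 and 7.46 in progression spleens (1.88 ± 0.35, adjusted p = 0.00721). Pi16, Scrg1, Asprv1, Reck and H1f4 differed by 1.67, 1.81, 2.26, 1.61 and 1.71, and all 5 missed the threshold with progression 3 alone. Klra17 passed in each fit that left out 1 array, while Rnase2a, Pi16, Scrg1, Asprv1, Reck and H1f4 were each lost without terminal 2 and without progression 1. Of the 14 fits Pi16 passed in 12, Scrg1 in 11, Reck in 10, Rnase2a in 7 and Asprv1 and H1f4 in 4 each.

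Max and Vapb were low in the arrays with low 18S signal. Max, the dimerisation partner of Myc, stood at 10.15, 9.85 and 9.92 in terminal spleens, against 6.03, 6.56 and 9.66 in progression spleens (2.56 ± 0.63, adjusted p = 0.0302). Progression 1 and 2 were the low arrays, and with progression 3 alone the difference was 0.31 (adjusted p = 0.53). Vapb, a membrane protein of the endoplasmic reticulum, stood at 9.25, 8.99 and 9.00 in terminal spleens, against 5.68, 6.29 and 8.93 in progression spleens, and with progression 3 alone it differed by 0.14 (adjusted p = 0.736). Lmnb1, a nuclear lamina protein named here after its values were seen, had the same pattern, at 11.26, 11.51 and 11.62 in terminal spleens, against 9.49, 9.58 and 11.89 in progression spleens. Myc itself differed by 0.48 ± 0.14, adjusted p = 0.0628. In the Myc and Max list of 22 genes 2 rose and 2 fell, where 2.56% of all genes rose and 3.3% fell. The list had 5 higher and 2 lower genes at an unadjusted p below 0.05, where 13.9% of all genes were higher and 11.3% lower. Ldha, lactate dehydrogenase A, rose by 0.58 but not without progression 1 or 2 or terminal 2 or 3, and Odc1, the first enzyme of polyamine synthesis, fell, at 11.13, 10.92 and 11.65 in terminal spleens, against 12.73, 12.49 and 12.94 in progression spleens (-1.49 ± 0.23, adjusted p = 0.0014). Mxd3, a partner of Max, fell by 0.94 (adjusted p = 0.00205). Odc1 and Mxd3 passed in each fit that left out 1 array and also fell with progression 3 alone. With Xist level as a covariate Odc1 fell and Mxd3 missed the threshold, at -0.77 (adjusted p = 0.0513).

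**Figure D5:**
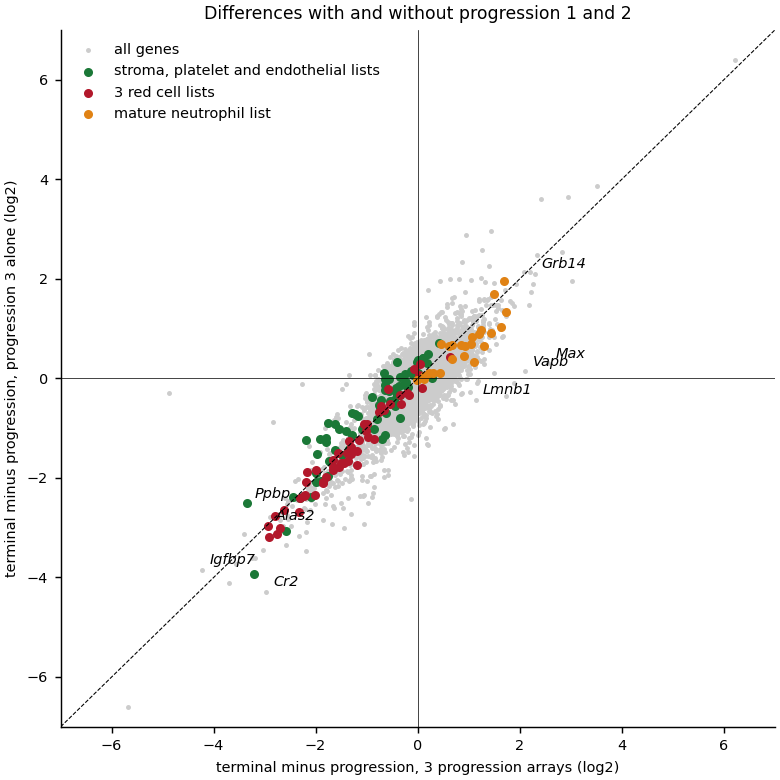
Each point is 1 of 12394 genes. The x axis is the log2 difference, terminal minus progression, over 3 progression arrays, and the y axis the same with progression 3 alone; the dashed line marks equal values. Red cell genes lie along the line, while Max, Vapb and Lmnb1 drop to near or below 0.

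Cell cycle genes were lower in terminal spleen where they passed. Of 48 mitosis genes 7 fell and none rose, with a median of -0.25. Of 41 DNA replication genes 3 fell and none rose, with a median of -0.12. Over all genes 3.3% fell and 2.56% rose. Mitosis had 17 lower and 2 higher genes at an unadjusted p below 0.05, and replication 8 and 1. Over all genes 11.3% were lower and 13.9% higher at that level. Every terminal array lay below every progression array in 22 mitosis and 11 replication genes, against 11.6% of all genes. Mki67, the proliferation antigen Ki-67, stood at 12.49, 12.38 and 12.60 in terminal spleens, against 13.16, 13.18 and 13.30 in progression spleens (-0.72 ± 0.15, adjusted p = 0.0151). Wild-type spleens held 12.78 to 13.05. Cdc25b, a phosphatase that starts mitosis, stood at 8.40, 8.81 and 9.09 in terminal spleens, against 10.26, 10.25 and 11.16 in progression spleens (-1.79 ± 0.27, adjusted p = 0.00117). Ube2c, Nusap1, Cenpf and Birc5 (survivin), which act in chromosome segregation and mitotic exit, fell, with differences of -0.72, -0.61, -0.75 and -0.63 (adjusted p = 0.00168, 0.0187, 0.024 and 0.0241). Tyms, Slbp and Rrm2, which act in nucleotide and histone supply, differed by -0.97, -0.43 and -0.62 and passed, though each was lost without progression 1 and without terminal 2 or 3. Tyms passed in 11, Slbp in 3 and Rrm2 in 2 of the 14 fits. The terminal levels of Tyms, with a mean of 5.01, lay near the dim end of the arrays. Nusap1 was lost without progression 2 or terminal 3, Birc5 without progression 1 or terminal 1 or 2 and Cenpf without any terminal array. Cdc25b and Cenpf were the 2 mitosis genes that fell with progression 3 alone, and 2 fell with Xist level as a covariate. No replication gene passed either way. Without terminal 2 the mitosis falls were 3, Mki67 not among them, and without early 3 they were 12.

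The submitters distinguish the 2 stages by DNA damage response and senescence. The values here are RNA levels in whole spleen, which do not measure either state directly. Of 40 damage response genes 2 fell and none rose, with a median of 0.02, where 3.3% of all genes fell and 2.56% rose. At an unadjusted p below 0.05, 5 were lower and 6 higher, near the shares of all genes, 11.3% lower and 13.9% higher. Every terminal array lay below every progression array in 9 of the 40, against 11.6% of all genes, and above in 4. With progression 3 alone 1 fell, and none passed with Xist level as a covariate. Chek1, the checkpoint kinase, stood at 8.56, 8.76 and 8.79 in terminal spleens, against 8.53, 8.49 and 8.67 in progression spleens (0.14 ± 0.15, adjusted p = 0.601). Brca2 and Fancl, which act in repair by recombination and of crosslinks, fell, with differences of -0.75 and -0.74 (adjusted p = 0.035 and 0.0328), and both were lost without progression 2 or any terminal array, Brca2 also without progression 3 or wild-type 3 and Fancl without progression 1. Of 27 p53 targets 1 rose and 1 fell, both in each fit that left out 1 array, and 3 were lower and 4 higher at an unadjusted p below 0.05. With progression 3 alone none of the list rose and 3 fell, and with Xist level as a covariate 1 rose and none fell. Mdm2 differed by 0.53 (adjusted p = 0.0809) with progression 3 alone and Sesn1 by -1.05 (adjusted p = 0.0638) with the covariate, so neither passed both ways. Mdm2, the ligase that degrades p53, stood at 10.10, 10.18 and 10.02 in terminal spleens, against 9.48, 9.42 and 9.56 in progression spleens (0.61 ± 0.10, adjusted p = 0.00231), and Sesn1, a stress sensor, fell by 1.02 (adjusted p = 0.00921). Cdkn1a, which encodes p21, stood at 8.66, 8.57 and 8.70 in terminal spleens, against 9.26, 7.96 and 7.78 in progression spleens, with progression 1 the highest of the 6 (0.31 ± 0.31, adjusted p = 0.568). Cdkn2a, which encodes p16 and p19ARF, stood at 6.83, 4.68 and 4.78 in terminal spleens, against 4.00, 3.90 and 4.87 in progression spleens, near the dim end except in terminal 1 (1.17 ± 0.50, adjusted p = 0.162).

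Of 20 senescence and CDK inhibitor genes 1 rose, Cdkn1c, which encodes p57 (0.84 ± 0.23, adjusted p = 0.0487), and 2 fell, Igfbp7 and Rb1, which encodes the retinoblastoma protein (-0.60 ± 0.15, adjusted p = 0.0308 for Rb1). At an unadjusted p below 0.05, 5 were lower and 4 higher, where 11.3% of all genes were lower and 13.9% higher. Past the threshold 3.3% of all genes fell and 2.56% rose. With progression 3 alone 1 of the list fell, Rb1, and with Xist level as a covariate 1 fell, Igfbp7. Both Cdkn1c and Rb1 were lost without progression 1, terminal 1 or terminal 2, Rb1 also without terminal 3 and Cdkn1c without progression 3 or any wild-type array. Cdkn1b, which encodes p27, was lower without passing (-0.83 ± 0.25, adjusted p = 0.062). None of 35 inflammatory chemokine and cytokine genes passed, with a median of -0.07, and 2 were higher and 3 lower at an unadjusted p below 0.05. Il6, a cytokine of the senescence secretory programme, stood at 4.56, 3.95 and 4.30 in terminal spleens, against 4.47, 5.15 and 3.56 in progression spleens, near the dim end in all (-0.12 ± 0.56, adjusted p = 0.918). Cxcl2, a neutrophil chemokine, stood at 5.90, 9.26 and 7.10 in terminal spleens, against 4.72, 4.92 and 3.76 in progression spleens and did not pass (2.95 ± 1.28, adjusted p = 0.17).

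None of the genes whose products make up the fusion passed. The Kmt2a probe set, which may or may not read the fusion transcript, stood at 8.81, 8.39 and 8.61 in terminal spleens, against 8.51, 8.91 and 9.20 in progression spleens (-0.27 ± 0.24, adjusted p = 0.506), and Mllt1 at 7.47, 7.44 and 7.37 in terminal spleens, against 6.76, 7.45 and 7.26 in progression spleens (0.27 ± 0.15, adjusted p = 0.275). Esr1 stood at 7.22, 7.38 and 7.42 in terminal spleens, against 7.03, 7.04 and 7.64 in progression spleens (0.10 ± 0.22, adjusted p = 0.813), above the 4.70 to 5.48 of wild-type spleens. Hoxa9 and Meis1, homeobox targets of MLL fusions, differed by -0.80 ± 0.46, adjusted p = 0.296 for Hoxa9 and 0.04 ± 0.17, adjusted p = 0.923 for Meis1. Hoxa9 stood at 8.89, 11.20 and 9.78 in terminal spleens, against 10.52, 11.04 and 10.71 in progression spleens, against 4.73 to 6.02 in wild type, so every array of both stages lay above every wild-type array. Of 23 MLL fusion targets 1 fell, Lmo2, and none rose, where 3.3% of all genes fell and 2.56% rose. The targets had 5 lower and 2 higher genes at an unadjusted p below 0.05, where 11.3% of all genes were lower and 13.9% higher. Of the 18 complex partners named next, 4 were lower and 3 higher at that level. Among 18 complex partners Men1, or menin, rose and Mllt3 and Aff1, which join the elongation complexes of ENL, fell, with differences of 0.60, -0.95 and -0.53 (adjusted p = 0.028, 0.032 and 0.046), and all 3 were lost without terminal 1 or terminal 2. Men1 was also lost without terminal 3 or progression 1 or 2, Mllt3 without progression 1 and Aff1 in 8 further fits. Men1 stood at 7.84, 7.69 and 7.77 in terminal spleens, against 6.97, 7.00 and 7.55 in progression spleens, with progression 1 and 2 the low arrays, and differed by 0.22 (adjusted p = 0.492) with progression 3 alone. No gene of the list passed with Xist level as a covariate. Of 25 stem and progenitor genes 3 fell and 1 rose, with a median of -0.15. At an unadjusted p below 0.05, 9 were lower and 2 higher, where 11.3% of all genes were lower and 13.9% higher. In 10 every terminal array lay below every progression array, as in 11.6% of all genes. The falls were Tal1 and Lmo2, which are also erythroid regulators, and Nkx2-3, which passed in 3 of the 14 fits that left out 1 array. None of the list passed with progression 3 alone, and with Xist level as a covariate Lmo2 and Cd34 fell. Erg, a factor of stem cells and megakaryocytes, rose (1.06 ± 0.25, adjusted p = 0.0252) but not without progression 1 or 2 or terminal 1 or 2, and Cd34, a progenitor surface protein, did not pass in the comparison of all 6 arrays without the covariate (-0.95 ± 0.30, adjusted p = 0.0748), and with it differed by -1.48 (adjusted p = 0.0249).

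Of 32 interferon-induced genes 3 fell and none rose, with a median of -0.29, where 3.3% of all genes fell and 2.56% rose. The list had 8 lower and no higher genes at an unadjusted p below 0.05, where 11.3% of all genes were lower. Isg20, an exonuclease, stood at 10.01, 10.17 and 10.16 in terminal spleens, against 12.52, 12.29 and 12.01 in progression spleens (-2.16 ± 0.17, adjusted p = 3.57e-06). Rsad2, or viperin, stood at 12.34, 11.48 and 11.98 in terminal spleens, against 14.03, 13.49 and 13.44 in progression spleens (-1.72 ± 0.20, adjusted p = 0.000143). Ifit1 fell as well (-1.78 ± 0.45, adjusted p = 0.0332), but not without progression 1 or terminal 2 or 3. Isg20 and Rsad2 also fell with progression 3 alone and with Xist level as a covariate, and wild-type spleens held them at 12.24 to 12.50 and 13.56 to 13.90, near the progression level. No marker list of another tissue gave a call. None of 21 pancreas acinar, 27 adipocyte and muscle or 16 hepatocyte genes passed, with list means of 4.97 to 5.02, 5.07 to 5.23 and 4.37 to 4.60 in terminal and 4.85 to 5.33, 5.11 to 5.36 and 4.26 to 4.59 in progression spleens. The pancreas acinar mean was 10.40 in wild-type 3, 6.55 in wild-type 5 and 6.82 in early 1. It was 4.93 to 5.22 in the remaining wild-type and early spleens, and its effect on the shared fit was not tested. None of 25 tissue macrophage, 16 plasma cell or 19 mast cell, basophil and eosinophil genes passed either, with medians of -0.08, 0.29 and -0.15. At an unadjusted p below 0.05 these 6 lists gave 0, 2, 3, 1, 2 and 5 genes in that order. Over all genes 11.3% were lower and 13.9% higher at that level.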

How the data were processed

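The values used are the log2 expression values the authors deposited, 1 per probe set and array, for 22690 probe sets on 29 arrays. Per the submitters' processing notes RMA, affy and limma were used, and versions, settings and filters are not given in the sources used here. Arrays give no read depth. Their number limits the precision, and the median standard error of a difference was 0.17. Median levels were 6.73 to 6.90 in spleen and 8.11 to 8.29 in marrow, so levels were compared among spleens only.

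Of the probe sets, 20393 had 1 gene symbol in GEO's platform annotation, updated through RefSeq, 691 had several and 1606 were not listed. The brightest probe set over the spleen arrays stood for a gene (12394 genes), with no filter on dim genes. No fold is given where the dimmer group was less than 1 unit above the arrays' lower quartile. Using limma 3.58.1 (R 4.3.3), a single model was fitted to the 4 spleen groups on 14 arrays, and moderated p-values were adjusted by Benjamini-Hochberg across genes, threshold 0.05. On simulated data 73% of genes changed by 1 log2 unit and 93% of those changed by 2 were recovered, and 7 unchanged genes were called. The simulated noise was independent, with 1 spread per gene for all arrays. It held no outlying arrays such as progression 1 and 2, so these shares may not hold for the real arrays.

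Genes were named if among the 15 largest rises or 15 largest falls past the threshold (placeholder symbols, antigen receptor segments and sex-linked genes apart), or, in each of 41 gene lists, among its 6 members of lowest p. Mki67, Cdkn1a, Il6, Hoxa9, Kmt2a, Esr1, Chek1, Meis1, Cdkn2a and Mllt1 were always named. Further members of the 3 red cell lists were named after their values were seen. The comparison and the lists were chosen with earlier results of these data known. Lists carry counts and medians and no test of their own. The alternatives were another normalization, centring, a filter on dim genes, the mean of a gene's probe sets, other sets of arrays, a trended and robust fit, array weights, a replicate block, covariates for Xist and for the Gapdh 3' minus 5' difference, and leaving out each array. Both fits with progression 3 alone were chosen after seeing the data. Promoter windows are RefSeq's. Figures were drawn with matplotlib 3.10.9.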

Additional observations from a re-analysis of the deposited data

Results flagged for a closer look

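In 3 of 41 gene lists 1 of the 5 wild-type spleens lay far from the other 4, by a criterion that chance meets in about 1 of 20 groups. For interferon-induced genes the mean of wild-type 4 was 9.20, against 8.98 to 9.04 in the other wild-type spleens. For haem synthesis the mean of wild-type 5 was 10.90, against 11.15 to 11.21. For respiratory chain genes the mean of wild-type 2 was 11.53, against 11.44 to 11.46. All 3 gaps are small beside the distance of the terminal arrays from wild type in haem synthesis, whose means were 9.60 to 9.83. The pancreas acinar list did not meet the criterion, though its mean was 10.40 in wild-type 3 and 6.55 in wild-type 5. The remaining wild-type spleens had acinar means of 4.93 to 5.16.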

How the results depend on the processing

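The counts moved more for rises than for falls. In place of 726 genes (409 lower and 317 higher), array weights gave 1259 with 686 higher, and the Gapdh difference as a covariate gave 1095 with 547 higher. Centring array medians gave 193 higher genes. The 6 arrays alone gave 268 (228 lower and 40 higher), Xist level as a covariate 200 (188 and 12), progression 3 alone 225 (206 and 19) and the last 2 together 102 (98 and 4). Leaving out 1 spleen array gave 310 to 1911 genes, with 241 to 872 lower and 69 to 1039 higher, lowest without progression 1 and highest without progression 3. Quantile normalization again, a filter on dim genes, the mean of probe sets, all 29 arrays in 1 fit and the trended, robust fit stayed within 1.5 times the total. Over all settings, 20 to 40 of the 52 red cell genes (48 kept by the filter on dim genes) fell and none rose, with 22 in the fit of all 29 arrays. None of the 110 named genes that passed changed sign in any alternative, and 23 passed in each. Among all 726 genes that passed, 4 changed sign with the mean of a gene's probe sets. With progression 3 alone and Xist level as a covariate 1 changed sign. Replicate numbers do not mark shared mice, and the deviations of same-numbered arrays correlated at 0.01, 0.23 and 0.23. With a replicate block 302 genes passed, 248 lower and 54 higher. Terminal 2 and 3 correlated best with the progression array of their own number, at 0.23 each. Terminal 1 correlated best with progression 2, at 0.10, not with its own number. Dim probe sets limit Cr2 and many stroma, endothelial and cytokine genes, whose lower group lay near the dim end.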
